A study of Mus musculus with 6 samples.

Results

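The genes described here encode the nuclear-encoded subunits of the oxidative phosphorylation machinery, the respiratory chain and ATP synthase of the mitochondrial inner membrane. They were taken by symbol: every row whose symbol started with Nduf, Uqcr, Cox4 to Cox8 or Atp5, and Sdha, Sdhb, Sdhc, Sdhd, Cyc1 and Cycs. The rule took 96 of the 38926 symbols in the table. Of these, 84 were subunits or cytochrome c: 36 of complex I, 4 of complex II, 9 of complex III, 19 of complex IV, 15 of complex V, and Cycs. The other 12 were not subunits and were counted apart: the assembly factors Ndufaf1 to Ndufaf7, Atp5l-ps1, Atp5l2, Atp5s, Atp5sl and Ndufa4l2. Of the 84 subunits, 81 averaged 1 FPKM or more across the 6 libraries and entered the test, among 11371 genes tested. Cox7b2, Cox8b and Cox8c were below that level.

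RNA was sequenced from LSK cells, the marrow fraction that lacks lineage markers and carries Sca1 and cKit and that holds stem cells and multipotent progenitors. They were sorted from femur and tibia of untreated C57BL/6 mice aged 8 to 12 weeks. There were 3 libraries labelled as double knockout of the dopamine receptor genes Drd2 and Drd3 (KO) and 3 labelled wild type (WT), written below as KO and WT replicates 1 to 3. The labels name no other allele. Whether each replicate is its own animal is not stated, and p-values here cover only the spread among these libraries. Values are the authors' FPKM, fragments per kilobase of gene and per unit of depth. Orders and shares of different genes by FPKM therefore depend on the gene length used, which differed widely among the subunits.

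The respiratory chain moves electrons from NADH through complex I, or from succinate through complex II, to ubiquinone. Complex III passes them to cytochrome c and complex IV to oxygen. The proton gradient built by complexes I, III and IV drives ATP synthase, complex V. Mitochondrial DNA encodes a few core subunits, and nuclear genes encode all the others. Stem cells at rest are known for leaning on glycolysis more than their dividing progeny do.

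The recovered read totals were 7130123, 6802008 and 5232980 in KO replicates 1 to 3 and 6190576, 5893169 and 6185775 in WT replicates 1 to 3. Pearson's r over the tested genes was 0.963 to 0.970 between KO libraries, 0.949 to 0.956 between KO and WT libraries, and 0.983 to 0.985 between WT libraries. All 13 listed LSK markers were above 0 in every library, among them Kit and Ly6a (Sca1). Drd2 was at 0 in every library. Drd3 had 1.62, 3.08 and 3.04 FPKM in libraries labelled KO and was at 0 in the 3 libraries labelled WT, which goes against the labels; the sources used here do not give which part of the gene the knockout removes. Each direction below is therefore that of the libraries labelled KO, and "KO" and "WT" below mean libraries so labelled. In KO replicates 1 and 3 the Y-linked gene Ddx3y was at 0, Xist was 1.96 and 2.01 FPKM and the immunoglobulin gene Igkc was 3182 and 1173 FPKM. In KO replicate 2 and the 3 WT libraries Ddx3y was 15.1 and 12.5 to 13.9 FPKM, Xist was at 0 and Igkc was 4.93 and 1.98 to 2.48 FPKM.

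Cox6a2 is the one subunit that the rule singles out, and its sequence shows how far its reads can be told from those of its paralogue. It encodes the heart and skeletal muscle isoform of complex IV subunit VIa and is also known as a gene of plasmacytoid dendritic cells. Cox6a1 encodes the isoform found in most tissues. The coding sequences below were joined from GRCm38 with GENCODE M21 exons. Cox6a2 lies at chr7:128205435-128206387 and Cox6a1 at chr5:115345642-115348981, both on the minus strand. Cox6a2 is given whole, at 294 bases, and Cox6a1 from base 1 to 300 of 339. Capitals mark the longest run of bases that both coding sequences share.
Cox6a2: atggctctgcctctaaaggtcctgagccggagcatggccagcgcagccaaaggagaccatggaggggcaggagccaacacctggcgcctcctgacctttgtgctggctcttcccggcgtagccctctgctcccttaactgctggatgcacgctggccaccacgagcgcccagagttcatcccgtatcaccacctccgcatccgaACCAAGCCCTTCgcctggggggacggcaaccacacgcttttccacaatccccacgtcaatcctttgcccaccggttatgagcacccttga
Cox6a1: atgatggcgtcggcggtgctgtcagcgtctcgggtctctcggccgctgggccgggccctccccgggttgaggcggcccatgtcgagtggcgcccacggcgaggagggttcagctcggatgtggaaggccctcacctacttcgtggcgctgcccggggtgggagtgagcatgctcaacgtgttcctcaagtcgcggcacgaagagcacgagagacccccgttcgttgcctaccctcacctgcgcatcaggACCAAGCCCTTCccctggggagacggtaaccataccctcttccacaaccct
The shared run was 12 bases long. No other transcript in the annotation matched that of Cox6a2 at 95% identity or more over at least 100 bases.

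Of the 81 subunits tested, 3 fell in the libraries labelled KO and 0 rose (limma, adjusted p under 0.05). Cox6a2 and Ndufa4 belong to complex IV and Atp5e to complex V. The 3 calls are 3.7% of the subunits, where 10.9% of all genes tested were called, 5.48% higher and 5.43% lower. At an unadjusted p under 0.05 there were 8 subunits, against 27.5% of all genes tested. The libraries of the groups did not overlap for 9 subunits, or 11.1%, 3 of them higher (Uqcrc1, Cox4i2 and Ndufa6) and 6 lower (Cox6a2, Ndufa4, Atp5e, Atp5g2, Cox8a and Sdha). Over all genes tested the groups did not overlap for 32.8%.

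The subunits differed little between the groups. The median log2 fold change, KO over WT on the log2(FPKM + 1) scale, was -0.017 over the 81 subunits and -0.0021 over all genes tested. Of the subunits, 37 had a positive and 44 a negative fold change. The middle of the subunits ran from -0.10 to 0.06 (quartiles), against -0.23 to 0.21 for all genes tested. The fold change lay within 0.5 of zero for 77 subunits (95.1%), against 82.1% of all genes tested. Its 95% interval lay within 0.5 of zero for 69 subunits (85.2%), against 34.5% of all genes tested, so for these 69 the data bound the difference at that size. The subunits were also far higher than most genes, and no comparison at matched levels was made. The median of the subunits' mean levels was 127 FPKM, against 10.4 FPKM over all genes tested. Of the 81 subunits, 79 were above 10 FPKM and 52 above 100 FPKM, a level that 814 of all genes tested passed.

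**Figure D1:**
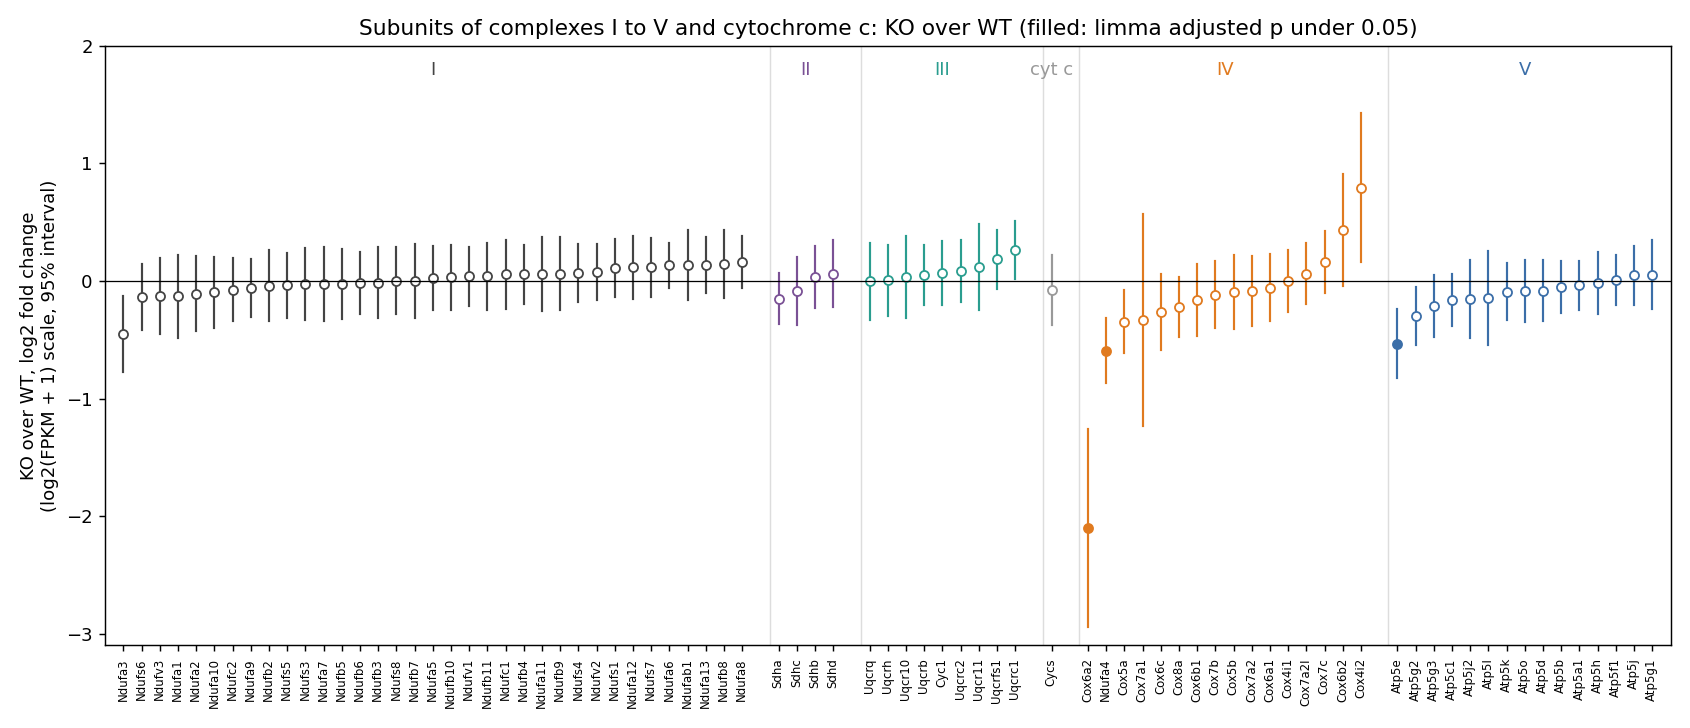
Log2 fold change, KO over WT, on the log2(FPKM + 1) scale for 80 of the 81 subunits tested, ordered within complexes I to V and cytochrome c; bars are 95% intervals and filled points have a limma adjusted p under 0.05. The filled points are Cox6a2 at -2.10, Ndufa4 at -0.59 and Atp5e at -0.53, and the complex I subunits lie between -0.45 and 0.16.

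Complex I, which takes electrons from NADH, had 36 subunits tested and none called by limma; 1 of them, Ndufa3, passed an unadjusted p of 0.05. Their median log2 fold change was 0.014, with 20 positive and 16 negative, and for 35 of the 36 the 95% interval lay within 0.5 of zero. The 7 nuclear-encoded core subunits carry the flavin and iron-sulphur clusters, and their median was 0.039. Among them Ndufs1, the largest subunit, was at 41.1, 48.4 and 42.8 FPKM in libraries labelled KO, against 44.6, 37.2 and 40.4 FPKM in libraries labelled WT. Ndufv1, which binds NADH and the flavin, was at 108, 111 and 86.8 FPKM in libraries labelled KO, against 92.9, 102 and 101 FPKM in libraries labelled WT. For both of these subunits the groups overlapped. Ndufs3, Ndufs7, Ndufs8 and Ndufv2, also of the core, had log2 fold changes from -0.027 (Ndufs3) to 0.12 (Ndufs7).

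The 29 accessory subunits of complex I had a median log2 fold change of 0.0026. Ndufb9 had the highest level of complex I, with 366, 383 and 269.8 FPKM in libraries labelled KO, against 293, 328 and 345 FPKM in libraries labelled WT. Its KO values reached above and below all WT values. Ndufb2 had the lowest level, with 20.5, 18.6 and 16.5 FPKM in libraries labelled KO, against 16.3, 19.8 and 21.1 FPKM in libraries labelled WT, and its groups overlapped. This rank depends on the gene length implied by the values, 5628 bases for Ndufb2 against 419 for Ndufa1. In KO replicate 1 Ndufb2 had 832 reads, and Ndufa1, at 264 FPKM, had 797. Ndufab1, the mitochondrial acyl carrier protein, averaged 25.7 ± 3.44 FPKM in KO and 23.3 ± 2.52 FPKM in WT libraries (SD, n = 3 each). Ndufa6, chosen after its values were seen, was at 158, 168 and 151 FPKM in libraries labelled KO, against 143, 144 and 147 FPKM in libraries labelled WT, so every KO library was above every WT library. Its fold change was 0.13 (SE 0.086, limma adjusted p = 0.349). Ndufa8 had the highest fold change of complex I, 0.16 (SE 0.097, limma adjusted p = 0.313), with overlapping groups.

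Ndufa3, an accessory subunit of the membrane arm, had the largest fold change of complex I. It was at 115, 142 and 98.6 FPKM in libraries labelled KO, against 139, 174 and 171 FPKM in libraries labelled WT. KO replicate 2 was above WT replicate 1, so the groups overlapped by those libraries. This fold change, -0.45 (SE 0.14, limma adjusted p = 0.0792), missed the threshold. It was past the threshold, at an adjusted p of 0.0354 to 0.0482, in 4 of 16 alternatives: both other scalings of the libraries, without KO replicate 2, and with libraries centred on the subunits. Over all 16 the adjusted p ran up to 0.582. Ndufa3 overlaps the gene Tfpt on the opposite strand, and reads of the overlap cannot be told apart, since these libraries carry no strand information.

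Complex II, succinate dehydrogenase, is also an enzyme of the TCA cycle and is encoded wholly in the nucleus. None of its 4 subunits was called by limma, and none had an unadjusted p under 0.05. Sdha, the flavoprotein, was at 172, 172 and 150.1 FPKM in libraries labelled KO, against 177, 194 and 176 FPKM in libraries labelled WT. Every KO library was below every WT library, by a small margin. Its fold change was -0.15 (SE 0.095, limma adjusted p = 0.348). Sdhb, which carries the iron-sulphur clusters, was at 149, 164 and 133 FPKM in libraries labelled KO, against 127, 160.1 and 149 FPKM in libraries labelled WT, and the groups overlapped. The membrane anchor Sdhc was at 54.5, 63.4 and 44.8 FPKM in libraries labelled KO, against 55.4, 59.7 and 56.4 FPKM in libraries labelled WT, the lowest level of the complex. The other anchor, Sdhd, was the highest, with 261, 282 and 207 FPKM in libraries labelled KO, against 219, 237 and 258 FPKM in libraries labelled WT. For Sdhb, Sdhc and Sdhd the 95% intervals of the fold changes ran from -0.23 to 0.30, from -0.38 to 0.20 and from -0.22 to 0.35. Sdhd lies 1.19 Mb from Drd2 on chromosome 9, the shortest distance of any subunit from a targeted gene.

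Complex III, which oxidises ubiquinol and reduces cytochrome c, had 9 subunits tested and none called by limma, with 1, Uqcrc1, at an unadjusted p under 0.05. Of these 8 had positive fold changes, with a median of 0.069 and a range from -0.0020 (Uqcrq) to 0.27 (Uqcrc1). Uqcrc1, a core protein of the matrix side, had the highest level of the complex. It was at 545, 549 and 451 FPKM in libraries labelled KO, against 391, 445 and 445 FPKM in libraries labelled WT. All KO libraries were above all WT libraries, KO replicate 3 by the smallest margin. This was a fold change of 0.27 (SE 0.11, limma adjusted p = 0.152). It passed the threshold in 3 of 16 alternatives, quantile normalisation (adjusted p = 0.00780), without KO replicate 3 (0.0368) and libraries centred on the subunits (0.0438), and the adjusted p otherwise ran up to 0.389.

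The catalytic subunits of complex III with nuclear genes are cytochrome c1 and the Rieske protein. Cyc1, encoding cytochrome c1, was at 232, 274 and 203 FPKM in libraries labelled KO, against 206, 233 and 232 FPKM in libraries labelled WT, with overlapping groups and a fold change of 0.069 (SE 0.12, limma adjusted p = 0.757). Uqcrfs1, the Rieske iron-sulphur protein, averaged 119 ± 13.6 FPKM in KO and 104 ± 7.46 FPKM in WT libraries (SD, n = 3 each), a fold change of 0.18 (SE 0.11, limma adjusted p = 0.316). Uqcrq, a small subunit, had the lowest level, 74.2 ± 14.7 FPKM in KO and 73.5 ± 6.48 FPKM in WT libraries (SD, n = 3 each). Cycs, the soluble electron carrier between complexes III and IV, was at 43.2, 57.8 and 41.5 FPKM in libraries labelled KO, against 46.5, 51.2 and 51.4 FPKM in libraries labelled WT. KO replicate 2 was above and KO replicates 1 and 3 were below all WT libraries, and the fold change was -0.078 (SE 0.13, limma adjusted p = 0.749). Cycs has a near copy, Gm10053, annotated as protein coding, at 99.9% identity over 946 bases and listed at 5.61 FPKM. The split of the Cycs reads is therefore uncertain. Its processed pseudogene copies, at up to 99.4% identity, were listed at 0 FPKM.

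Complex IV, cytochrome c oxidase, had 16 of its 19 nuclear-encoded subunits tested, and 2 fell. That is 12.5%, against 10.9% of all genes tested called in either direction and 5.43% called lower. The median log2 fold change was -0.10, with 12 negative and 4 positive. Its accessory subunits that are no tissue isoform numbered 11, of which 10 had negative fold changes. The most abundant subunit of the complex and of the whole set was Ndufa4, which was long counted in complex I and is now placed in complex IV. Ndufa4 was at 761, 784 and 614 FPKM in libraries labelled KO, against 969, 1118 and 1158 FPKM in libraries labelled WT. The highest KO library was below the lowest WT library. This gave a fold change of -0.59 (SE 0.12, limma adjusted p = 0.0183). Ndufa4 made up 5.58, 5.43 and 5.43% of the summed subunit FPKM in the libraries labelled KO, against 7.78, 7.91 and 7.94% in the libraries labelled WT.

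The Ndufa4 call held in 10 of 16 alternatives, with an adjusted p of 0.000436 to 0.180. It was lost with no filter (0.0843), with the replicate number as a block (0.0516), without WT replicate 2 (0.0936) or 3 (0.0853), with Y-linked transcripts as a term (-0.46, adjusted p = 0.180) and without KO replicates 1 and 3 (0.117). No other transcript was near-identical to Ndufa4, and no annotated gene overlaps it. Its hypoxia-linked paralogue Ndufa4l2 was at 0 in every KO library and, of the WT libraries, had 1 read, in replicate 1.

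Cox6a2 had the largest change of any subunit. Its recovered reads numbered 7, 22 and 21 in the libraries labelled KO and 51, 86 and 99 in the libraries labelled WT. These gave 1.47, 4.84 and 5.88 FPKM in libraries labelled KO, against 12.4, 22.3 and 24.1 FPKM in libraries labelled WT. The highest KO library was below the lowest WT library, KO replicate 1 was the lowest of the 6, and WT replicate 1 lay between the KO libraries and the other WT libraries. The group means were 4.06 ± 2.30 FPKM in KO and 19.6 ± 6.29 FPKM in WT libraries (SD, n = 3 each), so WT was 4.82-fold higher. The fold change was -2.10 (SE 0.37, limma adjusted p = 0.00993), with a 95% interval from -2.94 to -1.26. An exact two-sided permutation test of the mean FPKM gave p = 0.1, the smallest value that 3 against 3 libraries allow. In bulk libraries, fewer cells that express Cox6a2 and less Cox6a2 RNA per cell cannot be told apart.

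Cox6a2 kept its direction in all 16 alternatives, with log2 fold changes from -2.44 to -1.65, and was called in 12. It missed the threshold with no filter (adjusted p = 0.0529), without WT replicate 2 (0.0556), with Y-linked transcripts as a term (-1.77, adjusted p = 0.120) and without KO replicates 1 and 3 (-1.77, 0.0639). Cox6a1 was at 495, 557 and 404 FPKM in libraries labelled KO, against 462, 505 and 535 FPKM in libraries labelled WT, with overlapping groups and a fold change of -0.056 (SE 0.13, limma adjusted p = 0.816). Cox6a2 was thus a minor part of the summed FPKM of both isoforms, 0.297, 0.862 and 1.43% in the libraries labelled KO against 2.61, 4.23 and 4.31% in the libraries labelled WT.

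Cox6a2 lies inside Itgad, an integrin gene on the opposite strand, which stood at 0 to 0.0307 FPKM in the libraries labelled KO and 0 to 0.284 FPKM in those labelled WT. Itgax, the next gene upstream of Itgad, was at 0.171, 0.322 and 1.14 FPKM in KO libraries, against 1.07, 0.843 and 0.831 FPKM in WT libraries, and was below the level for the test. On the other side, 9130023H24Rik had a fold change of -0.43 (SE 0.19, limma adjusted p = 0.187) and Armc5 one of -0.21 (SE 0.17, adjusted p = 0.457). Of the genes within this interval that were tested, Cox6a2 alone was called.

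Marker genes of cell types in which Cox6a2 is known were listed and measured beside it. Of 16 plasmacytoid dendritic cell markers 10 were tested and 1 was called, Ccr9, a chemokine receptor shared with lymphoid cells, at 0.382, 0.859 and 0.313 FPKM in KO libraries and 3.30, 1.56 and 1.70 FPKM in WT libraries (-1.04, limma adjusted p = 0.0405). That is 10% of those tested, against 10.9% of all genes tested called in either direction and 5.43% called lower, and it rests on 1 gene. At an unadjusted p under 0.05 there were 3. Fold changes were negative for 8 of the 10, with a median log2 fold change of -0.26. Ly6d, a surface protein shared with lymphoid progenitors, was at 8.42, 8.17 and 4.27 FPKM in KO libraries and 13.7, 12.8 and 9.27 FPKM in WT libraries, without overlap (-0.73, limma adjusted p = 0.0835). The transcription factor gene Irf8 had a log2 fold change of -0.39 (limma adjusted p = 0.158), and its groups overlapped. The 2 with positive fold changes were Irf7 (0.44, limma adjusted p = 0.413) and Pld4 (0.29, limma adjusted p = 0.496). Siglech, a defining receptor of these cells, was at 0 to 0.218 FPKM in KO libraries and 0.0473 to 0.151 FPKM in WT libraries, and Klk1 and Cd209d were at 0 in all. The 16 markers summed to 171 to 219.9 FPKM in KO libraries and 195 to 209.7 FPKM in WT libraries, and Bst2, which many cell types express, made up 88.0 to 118 FPKM of the sum in KO libraries and 103 to 104 FPKM in WT libraries. Of 16 striated muscle markers 5 were at 0 in all libraries (Acta1, Myh4, Mb, Myh7 and Tcap). Of the 4 tested Pygm, muscle glycogen phosphorylase, was called higher, or 25%, against 5.48% of all genes tested. The muscle markers summed to 28.3 to 45.8 FPKM in KO libraries and 22.8 to 27.3 FPKM in WT libraries. Whether the makeup of the sorted cells has a part in the Cox6a2 difference was not tested.

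**Figure D2:**
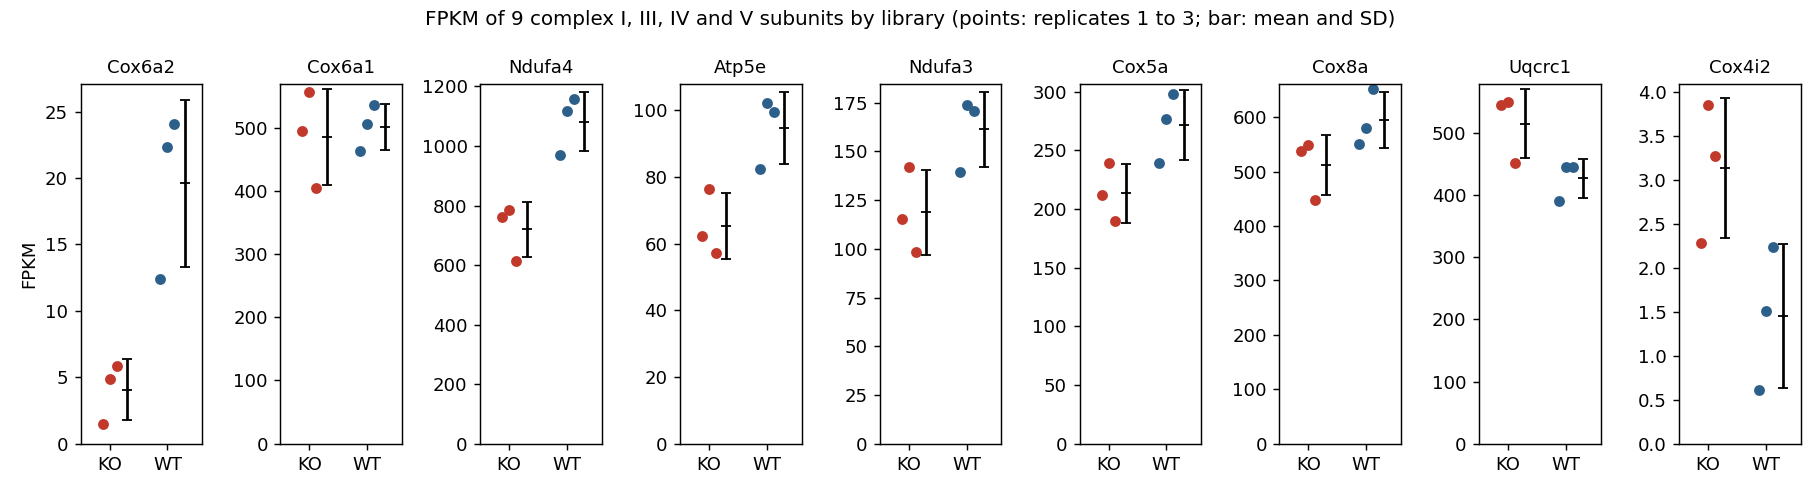
FPKM in each library for 9 subunits, KO on the left and WT on the right of each panel; points are replicates 1 to 3, bars are the mean and SD, and each panel has its own axis from 0. Cox6a2, Ndufa4, Atp5e and Cox8a have all KO points below all WT points, Uqcrc1 and Cox4i2 have all KO points above all WT points, and the groups overlap for Cox6a1, Ndufa3 and Cox5a.

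Other tissue isoforms of complex IV were low beside their common partners. Cox4i2, the isoform known from lung, was at 2.29, 3.86 and 3.27 FPKM in libraries labelled KO, against 0.610, 1.52 and 2.23 FPKM in libraries labelled WT. Every KO library was above every WT library, KO replicate 1 only just above WT replicate 3, and the reads behind these values numbered 13, 21 and 14 in KO libraries and 3, 7 and 11 in WT libraries. The fold change was 0.79 (SE 0.28, limma adjusted p = 0.104), and it was not called in any of the 15 alternatives that tested it. Its partner Cox4i1 was at 339.7, 339 and 272 FPKM in libraries labelled KO, against 286, 334 and 328 FPKM in libraries labelled WT, a fold change of -0.0012 (SE 0.12, limma adjusted p = 0.997). Cox4i2 was 0.669, 1.13 and 1.19% of both isoforms in KO libraries, against 0.213, 0.451 and 0.676% in WT libraries.

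Cox6b2, an isoform known from testis, was at 29.8, 47.9 and 28.4 FPKM in libraries labelled KO, against 19.7, 26.9 and 30.0 FPKM in libraries labelled WT. Its highest value was in KO replicate 2, and KO replicates 1 and 3 lay within the WT values. Between the groups the fold change was 0.44 (SE 0.21, limma adjusted p = 0.223). As a share of Cox6b1 and Cox6b2 it was 5.57, 7.43 and 6.48% in KO libraries, against 3.67, 4.44 and 4.93% in WT libraries, all KO shares above all WT shares. Cox6b1 itself averaged 504 ± 93.4 FPKM in KO and 559 ± 37.0 FPKM in WT libraries (SD, n = 3 each), a fold change of -0.16 (SE 0.14, limma adjusted p = 0.480).

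Cox7a1, the muscle isoform of subunit VIIa, had the lowest level of the tested subunits, with 3.81, 1.19 and 0.506 FPKM in libraries labelled KO, against 1.32, 2.34 and 3.08 FPKM in libraries labelled WT. The KO libraries spanned the WT values, and these levels rest on 10, 3 and 1 reads in KO libraries and 3, 5 and 7 reads in WT libraries. Cox7a2, the common isoform, averaged 213 ± 35.1 FPKM in KO and 224 ± 19.2 FPKM in WT libraries, and Cox7a2l, which takes part in joining complexes III and IV, averaged 109.6 ± 13.9 FPKM in KO and 104 ± 8.29 FPKM in WT libraries (SD, n = 3 each). Their fold changes were -0.085 and 0.064, with 95% intervals from -0.38 to 0.21 and from -0.19 to 0.32. Of the testis isoform Cox7b2, KO replicates 2 and 3 held 2 and 1 reads and KO replicate 1 and the WT libraries held none. Its partner Cox7b was at 115, 141 and 109 FPKM in libraries labelled KO, against 116, 135 and 145 FPKM in libraries labelled WT. Cox8b and Cox8c were at 0 in every library.

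Cox8a, the common isoform of subunit VIII, was at 537, 549.6 and 448 FPKM in libraries labelled KO, against 551, 580.3 and 651 FPKM in libraries labelled WT. Every KO library was below every WT library, KO replicates 1 and 2 by a small margin below WT replicate 1. The difference was -0.22 (SE 0.11, limma adjusted p = 0.248) on the log2 scale. Cox5a, a subunit facing the matrix that was chosen after its values were seen, was at 212, 239 and 189 FPKM in libraries labelled KO, against 239, 277 and 298 FPKM in libraries labelled WT, and KO replicate 2 was level with WT replicate 1. The fold change of Cox5a was -0.35 (SE 0.12, limma adjusted p = 0.0978), and the call appeared under quantile normalisation (adjusted p = 0.0284) and with libraries centred on the subunits (0.0472). Cox5b, a zinc-binding subunit, averaged 239 ± 38.3 FPKM in KO and 254 ± 31.7 FPKM in WT libraries, Cox6c 54.9 ± 7.55 FPKM in KO and 66.3 ± 10.4 FPKM in WT libraries and Cox7c 122 ± 17.2 FPKM in KO and 108 ± 5.61 FPKM in WT libraries (SD, n = 3 each). Cox6c had a fold change of -0.26 and Cox7c one of 0.16, neither past the threshold.

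Complex V, ATP synthase, had 15 subunits tested, of which Atp5e fell and 12 had negative fold changes, with a median of -0.082. The call of Atp5e alone is 6.67%, against 5.43% of all genes tested called lower. Atp5e, the epsilon subunit at the foot of the central stalk, was at 62.3, 76.3 and 57.3 FPKM in libraries labelled KO, against 82.5, 102 and 99.6 FPKM in libraries labelled WT. The highest KO library was below the lowest WT library. The fold change was -0.53 (SE 0.13, limma adjusted p = 0.0322). The call held in 9 of 16 alternatives, with an adjusted p of 0.0157 to 0.304. It was lost with no filter (0.0879), without KO replicate 1 (0.0906) or 3 (0.0584), without WT replicate 2 (0.139) or 3 (0.113), with Y-linked transcripts as a term (-0.30, adjusted p = 0.304) and without KO replicates 1 and 3 (0.250).

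All 5 subunits of the F1 head and central stalk had negative fold changes, and Atp5e was the only one of them called. Atp5b, the catalytic beta subunit, had the highest level of complex V, with 498, 537 and 445 FPKM in libraries labelled KO, against 487, 524 and 518 FPKM in libraries labelled WT. Atp5a1, the alpha subunit, averaged 462 ± 26.8 FPKM in KO and 473 ± 24.3 FPKM in WT libraries (SD, n = 3 each). The 95% intervals of the fold changes of Atp5b and Atp5a1 ran from -0.28 to 0.17 and from -0.24 to 0.17. The gamma subunit Atp5c1 averaged 202 ± 16.0 FPKM in KO and 226 ± 15.5 FPKM in WT libraries and the delta subunit Atp5d 146 ± 19.6 FPKM in KO and 154 ± 9.93 FPKM in WT libraries (SD, n = 3 each).

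The 10 subunits of the membrane sector and outer stalk had a median log2 fold change of -0.086, and none was called by limma; Atp5g2 passed an unadjusted p of 0.05. Atp5g1, Atp5g2 and Atp5g3 encode the same mature c-ring protein. Atp5g3 was the most abundant, with 119.8, 134 and 103 FPKM in libraries labelled KO, against 127, 136 and 149 FPKM in libraries labelled WT. Atp5g2 was at 88.9, 102 and 85.7 FPKM in libraries labelled KO, against 103, 111 and 127 FPKM in libraries labelled WT. Every KO library was below every WT library, KO replicate 2 by a small margin, and the fold change was -0.30 (SE 0.11, limma adjusted p = 0.117). Atp5g1 was the lowest of complex V, with 50.9, 58.8 and 42.5 FPKM in libraries labelled KO, against 44.2, 51.4 and 49.9 FPKM in libraries labelled WT. Its share of the 3 genes was 19.6, 19.97 and 18.4% in KO libraries, against 16.1, 17.2 and 15.3% in WT libraries. The implied gene length was 4912 bases for Atp5g1, 441 for Atp5g2 and 2181 for Atp5g3. In KO replicate 1 their reads numbered 1805, 283 and 1885, so their order and shares by FPKM depend on the length used. Atp5g1 and Atp5g2 each have a processed pseudogene that is near-identical to them, so the split of their reads is uncertain. Near-identical transcripts, at 95% or more over at least 100 bases, were found for 36 of the 84 subunits, among them Atp5l, whose copy Gm10221 was listed at 113 FPKM, above the 53.0 to 86.8 FPKM of Atp5l itself.

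The subunits moved together from library to library, with an order that did not follow the groups. The median deviation of the 81 subunits from each gene's own mean was 0.05, 0.13 and -0.21 on the log2(FPKM + 1) scale in KO replicates 1 to 3 and -0.14, 0.06 and 0.09 in WT replicates 1 to 3. KO replicate 3 was the lowest library for 54 of the 81 subunits and WT replicate 1 for 24. KO replicate 2 was the highest for 36 and WT replicate 3 for 22. Over all genes tested the same medians were 0.00039 to 0.0086. Among genes under 1000 bases that are no subunit KO replicate 3 and WT replicate 1 were also lowest, with medians of 0.07, 0.08 and -0.14 in KO libraries and -0.08, 0.02 and 0.06 in WT libraries. The tested subunits had a median length of 1287 bases, against 3304 over all genes tested, and 29 of the 81 were under 1000 bases. KO replicate 3 also had the fewest reads. WT replicate 1, at 6190576 reads, did not have fewer than WT replicates 2 and 3, at 5893169 and 6185775. The part of length or depth in this order was not tested.

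**Figure D3:**
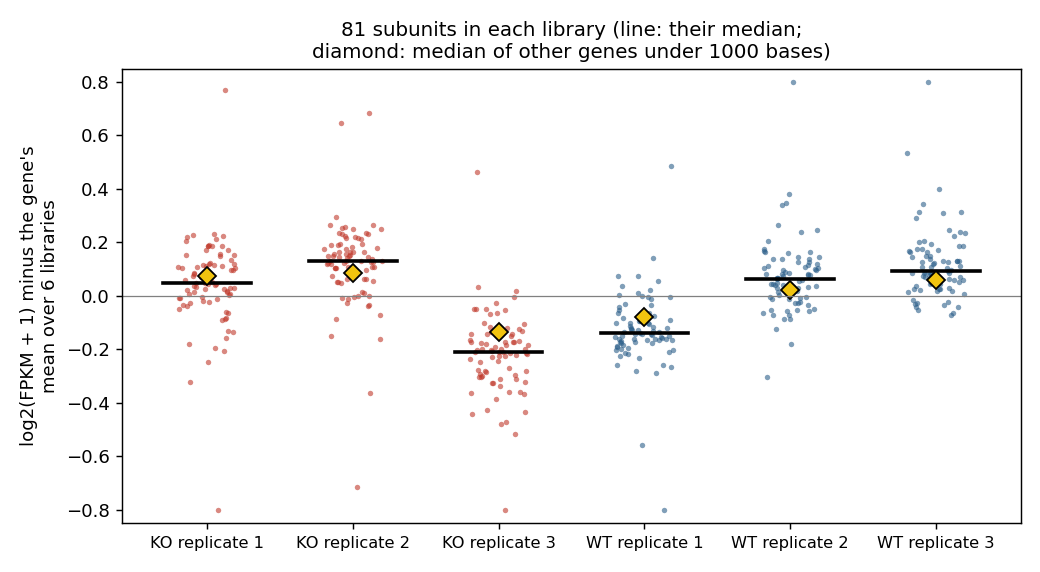
Deviation of each of the 81 subunits from its own mean over the 6 libraries, on the log2(FPKM + 1) scale; lines are the medians of the subunits, diamonds the medians of other genes under 1000 bases, and 5 points beyond the axis are drawn at its limit. KO replicate 3, at -0.21, and WT replicate 1, at -0.14, lie lowest.

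The summed subunit FPKM was 3.30, 3.55 and 2.99% of all FPKM in KO libraries, against 3.22, 3.52 and 3.64% in WT libraries, and the groups overlapped. Since the library order is shared by the subunits, shares of their own sum show the makeup apart from it; these shares were chosen after the values were seen and carry no test. Complex IV was 27.7, 28.2 and 27.6% of the sum in KO libraries, against 30.9, 30.9 and 31.3% in WT libraries. Complex III was 15.2, 15.2 and 14.6% in KO libraries, against 13.1, 13.1 and 13.2% in WT libraries. Complex I was 33.3, 32.8 and 33.0% in KO libraries, against 31.5, 31.6 and 31.6% in WT libraries. Complex II was 4.67, 4.72 and 4.73% in KO libraries, against 4.65, 4.61 and 4.38% in WT libraries. Complexes I, II and III thus took larger shares, and complex IV a smaller one, in every KO library than in any WT library. The margin was narrow for complex II. Shares of the same sum are bound together, so a smaller complex IV share, Ndufa4 included, by itself makes the other shares larger. With Ndufa4 out of the sum, complexes I and III still took larger shares in every KO library than in any WT library. For complex II the groups then overlapped. The groups overlapped for complex V, at 18.7, 18.7 and 19.7% in KO libraries and 19.5, 19.4 and 19.1% in WT libraries.

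Ndufa4 and Uqcrc1 held part of this difference. Summed FPKM of complex III over that of complex IV was 0.550, 0.539 and 0.529 in KO libraries, against 0.423, 0.425 and 0.421 in WT libraries. Without Ndufa4 it was 0.688, 0.668 and 0.658 in KO libraries, against 0.565, 0.572 and 0.564 in WT libraries. Without Ndufa4 and Uqcrc1 it was 0.508, 0.501 and 0.478 in KO libraries, against 0.429, 0.435 and 0.434 in WT libraries, so the groups still did not overlap. Complex V was 18.7, 18.7 and 19.7% of the sum in KO libraries, against 19.5, 19.4 and 19.1% in WT libraries, and overlapped.

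**Figure D4:**
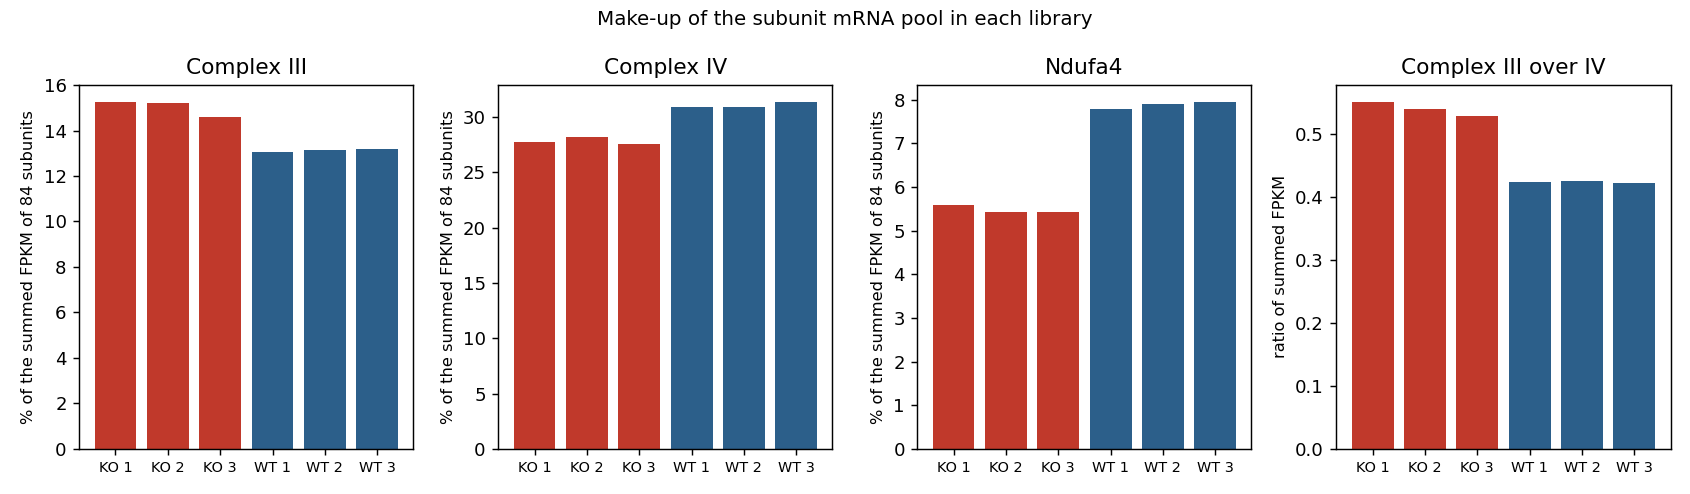
Shares of the summed FPKM of the 84 subunits held by complex III, complex IV and Ndufa4, in percent, and the ratio of the sums of complexes III and IV, for KO replicates 1 to 3 and WT replicates 1 to 3; bars are single libraries and start at 0. Complex IV and Ndufa4 are lower, and complex III and the ratio are higher, in all KO bars than in any WT bar; the ratio is 0.529 to 0.550 in KO and 0.421 to 0.425 in WT libraries.

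Promoters were read for the 2 abundant subunits that fell and for Cox6a1, whose level overlapped between the groups, to show how the sequence before the start differs among subunits. Nuclear respiratory factor 1 (NRF1) and GABP, an Ets factor, are known regulators of respiratory chain genes. The sequences are the 250 bases before the start given by RefSeq on GRCm38.p6, on the minus strand, for Ndufa4 at chr6:11907451-11907700, Atp5e at chr2:174464102-174464351 and Cox6a1 at chr5:115348959-115349208. Capitals mark matches to the NRF1 motif GCGCANGCG on either strand; 2 of the 3 matches of Cox6a1 overlap.
Ndufa4: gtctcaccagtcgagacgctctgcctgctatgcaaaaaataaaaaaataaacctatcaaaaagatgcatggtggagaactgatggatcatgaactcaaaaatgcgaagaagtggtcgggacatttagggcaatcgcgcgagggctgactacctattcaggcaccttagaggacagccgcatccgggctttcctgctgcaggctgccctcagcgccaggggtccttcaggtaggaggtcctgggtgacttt
Atp5e: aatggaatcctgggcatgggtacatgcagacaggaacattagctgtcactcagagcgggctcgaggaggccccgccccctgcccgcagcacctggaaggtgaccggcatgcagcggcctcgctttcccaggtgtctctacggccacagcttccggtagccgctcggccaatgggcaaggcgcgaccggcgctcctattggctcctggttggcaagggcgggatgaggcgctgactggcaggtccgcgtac
Cox6a1: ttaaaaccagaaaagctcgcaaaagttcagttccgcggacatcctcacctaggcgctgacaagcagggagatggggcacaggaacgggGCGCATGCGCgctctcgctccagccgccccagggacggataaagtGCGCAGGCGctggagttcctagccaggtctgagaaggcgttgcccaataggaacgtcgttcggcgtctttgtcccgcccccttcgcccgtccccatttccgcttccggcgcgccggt
These letters were not in the windows of Ndufa4 and Atp5e. Among the 14 complex IV subunits with a matched promoter, Cox6a1 was the only one whose window held them. No promoter was matched for Cox6a2 or Cox4i1. The windows of Cox6b1, Cox7a2 and Atp5b, whose groups also overlapped, held none. A link between the motif and the fold changes was not tested. A promoter was matched for 69 of the 84 subunits. In windows from 250 bases before to 50 after the start, 20 of the 69 (29.0%) held the NRF1 motif, against 14.9% of the 8065 promoters of tested genes and 6.47% of all 27025 promoters. The motif was in 8 of 32 windows of complex I, 2 of 3 of complex II, 2 of 5 of complex III, 1 of 14 of complex IV and 6 of 14 of complex V. The GABP motif CCGGAAGT, on either strand, was in 5 of the 69 (7.25%), against 9.23% of promoters of tested genes and 4% of all. A match is a description of the letters and not a bound site.

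The subunits encoded by mitochondrial DNA were measured in the same libraries. Of 13, 12 were tested and 2 fell (16.7%, against 10.9% of all genes tested called in either direction and 5.43% called lower). The row of mt-Nd4l was at 0. mt-Nd3, a complex I subunit, was at 25.1, 25.4 and 34.4 FPKM in libraries labelled KO, against 60.8, 53.9 and 64.9 FPKM in libraries labelled WT. Each KO library was below each WT library by a wide margin. Its fold change was -1.07 (SE 0.14, limma adjusted p = 0.00267), called in all 16 alternatives. mt-Co3, a core subunit of complex IV, was at 1393, 1492 and 1416 FPKM in libraries labelled KO, against 1942, 1808 and 2018 FPKM in libraries labelled WT, with no overlap. Its fold change was -0.42 (SE 0.098, limma adjusted p = 0.0264), called in 7 of 16 alternatives with an adjusted p of 0.00523 to 0.194. mt-Co2, also of complex IV, had 459, 549 and 543 FPKM in libraries labelled KO, against 627, 629 and 728 FPKM in libraries labelled WT, a fold change of -0.36 (SE 0.11, limma adjusted p = 0.0705). mt-Co1, the catalytic subunit of complex IV, was at 1015, 1039 and 1006 FPKM in libraries labelled KO, against 857, 875 and 968 FPKM in libraries labelled WT, higher in every KO library and not called, 0.18 (SE 0.094, limma adjusted p = 0.245). The genes mt-Co3 (chrM:8607-9390) and mt-Nd3 (chrM:9459-9806) lie next to each other, with mt-Tg between them.

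Of the 12 rows that the rule took and that are no subunits, 10 were tested and none was called by limma; Ndufaf5, a complex I assembly factor, had an unadjusted p of 0.0410. Assembly factors put the complexes together and are no part of them. In the list of complex I assembly factors 1 of 15 tested was called, and it was higher, which is 6.67% against 5.48% of all genes tested called higher, and 3 of the 15 passed an unadjusted p of 0.05, against 27.5% of all genes. This was Timmdc1, with 19.3, 18.9 and 15.9 FPKM in libraries labelled KO, against 2.60, 2.01 and 1.70 FPKM in libraries labelled WT. Every KO library was several-fold above every WT library. Its log2 fold change was 2.62 (SE 0.16, limma adjusted p = 6.08e-05), called in all 16 alternatives. Timmdc1 lies at chr16:38498347-38522663, 5.23 Mb from Drd3, one of the targeted genes. No assembly factor of complex II (3 tested), III (4), IV (22) or V (4) was called by limma, and at an unadjusted p under 0.05 there were 0, 2, 1 and 1. Of those 22 of complex IV, 17 had positive fold changes, with a median of 0.14, and Sco1, a copper carrier for complex IV, passed an unadjusted p of 0.05. It was at 5.51, 6.49 and 6.29 FPKM in libraries labelled KO, against 4.94, 4.04 and 2.85 FPKM in libraries labelled WT, a fold change of 0.54 (SE 0.19, limma adjusted p = 0.10).

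Genes of mitochondrial supply were read against all genes tested, of which 10.9% were called and 27.5% passed an unadjusted p of 0.05. In the TCA cycle and pyruvate dehydrogenase list 0 of 18 were called by limma, with 4 at an unadjusted p under 0.05, and in the cristae list 0 of 9, with 0 at that level. Among regulators of mitochondrial biogenesis 0 of 18 were called, with 0 at an unadjusted p under 0.05, a median log2 fold change of -0.11 and 13 negative. In that list the factor gene Nrf1 averaged 8.84 ± 1.55 FPKM in KO and 8.23 ± 0.636 FPKM in WT libraries (SD, n = 3 each). Tfam, which packages mitochondrial DNA, had 15.6, 12.6 and 13.6 FPKM in libraries labelled KO, against 15.7, 15.7 and 13.96 FPKM in libraries labelled WT, and the groups of both overlapped. Among carriers and porins 1 of 9 was called, and it was lower. That is 11.1%, against 10.9% of all genes tested called in either direction and 5.43% called lower, and it rests on 1 gene. This was Vdac1, the main outer membrane channel for metabolites, with 35.2, 39.4 and 49.2 FPKM in libraries labelled KO, against 86.6, 74.6 and 72.3 FPKM in libraries labelled WT. All KO libraries were below all WT libraries. Its fold change was -0.91 (SE 0.14, limma adjusted p = 0.00459), called in all 16 alternatives. Its paralogues Vdac2 and Vdac3 had fold changes of 0.067 and 0.070.

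**Figure D5:**
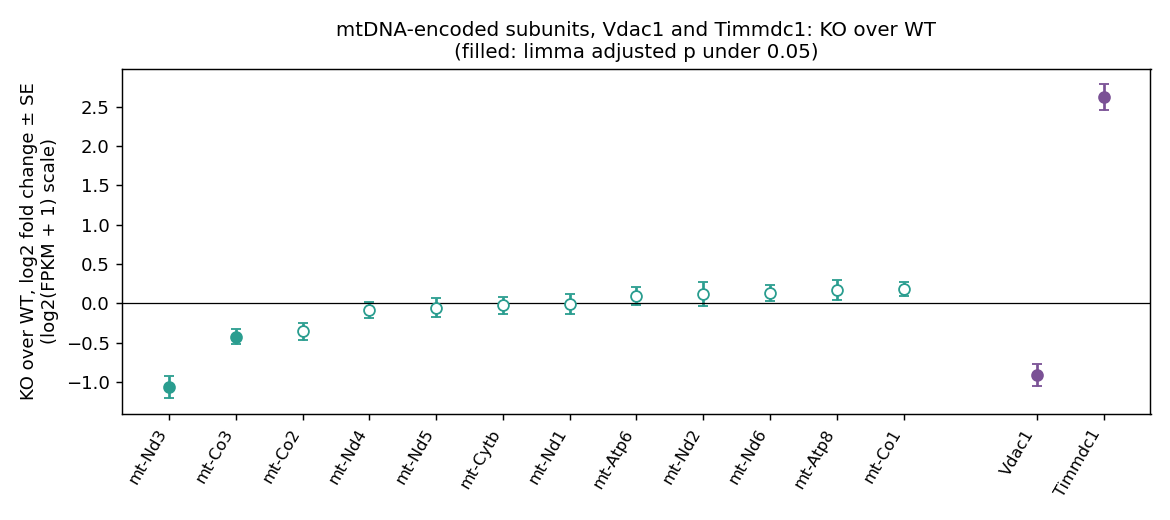
Log2 fold change, KO over WT, on the log2(FPKM + 1) scale for the 12 tested subunits encoded by mitochondrial DNA, Vdac1 and Timmdc1; bars are the SE and filled points have a limma adjusted p under 0.05. mt-Nd3 at -1.07, mt-Co3 at -0.42, Vdac1 at -0.91 and Timmdc1 at 2.62 are filled, and the other 10 lie from -0.36 to 0.18.

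Cells of other kinds were followed by their markers. Of the 13 LSK markers 4 were called higher and 2 lower, together 46.2%, against 10.9% of all genes tested. Flt3, which marks multipotent progenitors within the gate, was at 31.8, 34.4 and 38.6 FPKM in libraries labelled KO, against 94.0, 77.7 and 76.6 FPKM in libraries labelled WT, and Slamf1, which marks long-term stem cells, was at 8.27, 9.06 and 12.4 FPKM in libraries labelled KO, against 0.942, 1.96 and 2.31 FPKM in libraries labelled WT. Both differed without overlap. Of the erythroid markers 9 of 14 tested were called higher (5.48% of all genes tested were), and the list summed to 2751 to 4744 FPKM in KO libraries and 1641 to 2120 FPKM in WT libraries. Of mast cell markers 4 of 8 tested were called higher (50%): Cma1, Tpsb2, Hdc and Gata2. Gata2 is also on the LSK list and is counted in both. The others tested, Cpa3 (0.11), Ms4a2 (0.18), Fcer1a (1.21) and Mcpt8 (-0.33), were not called. B and plasma cell markers summed to 164 to 3624 FPKM in KO libraries and 349 to 370 FPKM in WT libraries. Igkc and Ighm together held most of that sum in each library. None of the 12 neutrophil markers tested was called by limma, and 4 passed an unadjusted p of 0.05. Of these 12, 8 had negative fold changes, with a median log2 fold change of -0.43. The list summed to 559 to 1259 FPKM in KO libraries and 812 to 826 FPKM in WT libraries. Mpo, with a fold change of 0.33, held most of that sum, at 384 to 918 FPKM in KO and 448 to 568 FPKM in WT libraries. Of 6 T and NK cell markers tested, Klrb1c was called higher (1.16) and Nkg7 lower (-0.72), or 33.3%, against 10.9% of all genes tested. The list summed to 254 to 362 FPKM in KO libraries and 409 to 474 FPKM in WT libraries. Nkg7 held most of that sum, at 187 to 291 FPKM in KO and 352 to 417 FPKM in WT libraries. Cd3g and Ncr1, defining genes of T and NK cells, were at 0 in all libraries. Of 6 macrophage and monocyte markers tested Cd68 was called lower (-0.69, limma adjusted p = 0.0099), or 16.7%, against 5.43% of all genes tested. That list summed to 420 to 505 FPKM in KO libraries and 387 to 458 FPKM in WT libraries. Lyz2, which was not called, held most of that sum, at 395 to 464 FPKM in KO and 355 to 417 FPKM in WT libraries. The part of these other cells in the values of the subunits was not tested.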

How the data were processed

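The deposited table held FPKM for 38926 gene symbols in 6 libraries, 3 labelled KO and 3 labelled WT. SMART-Seq v4 cDNA went into Nextera XT libraries, per the labels' protocols, and neither step keeps strand. Build mm10 is named in the submitters' processing notes, with DESeq2 1.18.1, HTSeq 0.6.1, TopHat2 2.1.1 and bcl2fastq 2.19.1.403. The roles of these tools and the annotation are not given in the sources used here.

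The FPKM of all 17183 genes above 0 in 2 or more libraries were multiples of 1 read (relative tolerance 1e-06), and the implied gene length equalled that of GENCODE M21 for 50.5% of genes above 0. Recovered reads numbered 5232980 to 7130123 per library; where a common factor is missing they are lower bounds. One read in 1000 bases stood for 0.139 to 0.184 FPKM.

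KO was compared with WT in limma 3.58.1 (R 4.3.3; lmFit, then eBayes with trend set) for the 11371 genes that averaged 1 FPKM or more. Values were log2(FPKM + 1), a scale that understates changes of low genes. Two-sided p-values were Benjamini-Hochberg adjusted over all genes tested and called under 0.05. No block was used. Deviations of same-numbered libraries from their group means correlated at -0.031, 0.045 and -0.12, against -0.16 to 0.17 for libraries of unlike number. These values show no pairing by number but cannot exclude one, since deviations within a group sum to 0. The fit was tested on simulated data. Tables and plots used Python 3.11.15, pandas 2.3.3 and matplotlib 3.10.9.

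The members, their complexes and all gene lists were chosen with earlier results of these data known, and no set test was run. Named members are those called, Cox6a2, Sdha to Sdhd, Cyc1 and Cycs, the highest, the lowest and the most changed of each complex, tissue isoforms, and called genes of other lists. One subunit is counted but not reported here. Others were named for their role or after their values were seen. Alternatives were another pseudocount (0.1), no filter or at least 5 FPKM, libraries scaled to the same sum, quantile normalisation, voom on recovered reads, the replicate block, each library left out, a term for Y-linked transcripts (Ddx3y above 0 or not), KO replicates 1 and 3 left out, and, added after the data were seen, libraries centred on the subunits. Near copies were found by aligning GENCODE M21 transcripts. Promoters came from RefSeq on GRCm38.p6, and the first start listed was used for 5 subunits with more than 1.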

Additional observations from a re-analysis of the deposited data

How the results depend on the processing

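The main test called 1240 genes and 3 subunits (complex I 0, complex III 0, complex IV 2, complex V 1). With no filter it called 588 genes and 0 subunits, and Cox6a2 (-2.10) had an adjusted p of 0.0529. Voom on recovered reads called 3 subunits, with 0 in complexes I to III. Quantile normalisation called 6 subunits, with 1 in complex I and 1 in complex III, and scaling to the same sum called 1 in complex I; the added centring on the subunits called 506 genes and 6 subunits, with 1 in each of these complexes. With the replicate block, which pairs libraries by number alone, 805 genes and 2 subunits were called, Atp5e and, in complex IV, Cox6a2. Leaving out 1 library gave 370 to 1598 genes, 0 to 4 subunits, 0 to 1 in complex I, 0 to 1 in complex III, 0 to 2 in complex IV and 0 to 1 in complex V, and Cox6a2 values of -2.39 to -1.65, lost without WT replicate 2. Y-linked transcripts as a term gave 373 genes and 0 subunits; leaving out KO replicates 1 and 3, with the remaining KO library assumed to vary like WT, called 514 genes and 0 subunits. Under both, complexes IV and V had 0 calls and Cox6a2 was -1.77. The cause of these changes was not tested, apart from the loss of samples by construction. The median log2 fold change of the subunits stayed small, from -0.083 to 0.12, but changed sign between alternatives. Cox6a2, at 7 to 99 reads, Cox4i2 and Cox7a1 are limited by depth.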
